A study of Homo sapiens with 18 samples.

Results

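The 10 genes described here encode the desmosomal cadherins DSG1, DSG2, DSG3, DSC2 and DSC3 and the plaque proteins PKP1, PKP2, PKP3, DSP and JUP. They were taken by gene symbol from the deposited count tables of 3 human head and neck squamous carcinoma lines, and all 10 were found among the 23710 genes of each table. Desmosomes are spot-like junctions that hold neighbouring epithelial cells together and anchor their keratin filaments. Desmogleins (DSG) and desmocollins (DSC) cross the membrane and bind the cadherins of the next cell. Inside the cell, plakoglobin (JUP) and the plakophilins (PKP) bind the cadherin tails, and desmoplakin (DSP) links them to keratin. In stratified epithelium DSG2, DSC2 and PKP2 are typical of the basal layers and of simple epithelium, whereas DSG1, DSG3, DSC3 and PKP1 are typical of squamous epithelium.

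The study changed the level of EHF, an ETS family transcription factor of epithelial cells. A253 comes from a carcinoma of the submandibular gland, and SCC25 and CAL27 come from carcinomas of the tongue. A253 gave 3 control libraries and 3 libraries of cells made to overexpress EHF with 1 ug of doxycycline. SCC25 gave 2 and 2 libraries of the same kinds. Per the labels their controls were kept in regular media, and an effect of the drug itself cannot be told apart from that of EHF. CAL27 gave 2 control libraries, which the count table names sh Control, and 2 libraries from each of 2 knockdowns, which it names sh 64 and sh 65. The labels call the knockdowns 1 and 2 and do not tie these numbers to sh 64 or sh 65. They do not say whether the libraries of a group came from separate cultures, so p-values measure only the spread between these libraries. The series' ChIP and input libraries of CAL27 were not analysed here.

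Library totals ran from 11090976 to 17823293 counts in A253, from 10728569 to 15965279 in SCC25 and from 7068155 to 19962159 in CAL27. EHF stood at 84.5, 91.4 and 83.2 CPM (read counts scaled to library size by TMM) in the A253 controls and at 765, 711 and 633 CPM in the overexpressing libraries, a log2 change of 3.02. It stood at 461 and 420 CPM in the SCC25 controls and at 860 and 892 CPM after overexpression, a log2 change of 0.99. In CAL27 it stood at 962 and 992 CPM in the controls, 497 and 526 CPM in sh 64, and 444 and 469 CPM in sh 65. These are log2 changes of -0.93 and -1.10, so the knockdowns were partial. All 8 epithelial markers were detected in all 7 groups. The leukocyte marker PTPRC averaged 0.116 to 0.341 CPM over these groups, and CD3E was at 0 in both A253 groups and in the SCC25 controls. Others of the 5 leukocyte markers were higher: CD68 averaged 31.1 to 221 CPM and CD14 2.78 to 40.0 CPM, and the 5 summed to at most 258 CPM in a library. A253 control replicate 2 stood further from the other A253 controls (chi-square divided by degrees of freedom, 8.59 and 9.33) than they did from each other (2.79). The SCC25 overexpression pair differed more (17.9) than the SCC25 control pair (3.08).

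The start regions of 4 members are shown because these members behaved differently in the tests below: PKP1 and JUP had the largest changes among the 9 tested members in the mean of both CAL27 knockdowns, DSG3 rose in SCC25 and CAL27, and its chromosomal neighbour DSG2 was called in none of the main comparisons with control. Each is the 250 bases before the RefSeq start of the gene (GRCh38.p14, 5′ to 3′ on the strand of the gene), with each GGAA, the core of the ETS motif, or its reverse complement TTCC in capitals. PKP1 is chr1:201283256-201283505 (+), JUP chr17:41786712-41786961 (-), DSG3 chr18:31447491-31447740 (+) and DSG2 chr18:31497927-31498176 (+).
PKP1: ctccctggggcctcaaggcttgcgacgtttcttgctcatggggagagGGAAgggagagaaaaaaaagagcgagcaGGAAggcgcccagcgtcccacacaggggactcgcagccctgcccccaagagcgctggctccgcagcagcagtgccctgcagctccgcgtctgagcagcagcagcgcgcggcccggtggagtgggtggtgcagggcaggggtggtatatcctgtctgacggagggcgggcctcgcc
JUP: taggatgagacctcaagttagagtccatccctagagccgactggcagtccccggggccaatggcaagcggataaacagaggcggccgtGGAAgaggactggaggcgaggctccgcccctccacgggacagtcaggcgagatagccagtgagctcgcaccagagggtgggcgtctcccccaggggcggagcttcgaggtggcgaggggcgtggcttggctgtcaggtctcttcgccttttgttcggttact
DSG3: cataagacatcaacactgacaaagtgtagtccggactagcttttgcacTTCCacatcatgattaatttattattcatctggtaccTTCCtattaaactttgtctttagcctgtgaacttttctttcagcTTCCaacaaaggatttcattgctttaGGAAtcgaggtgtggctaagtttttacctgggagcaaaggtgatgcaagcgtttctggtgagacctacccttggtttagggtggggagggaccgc
DSG2: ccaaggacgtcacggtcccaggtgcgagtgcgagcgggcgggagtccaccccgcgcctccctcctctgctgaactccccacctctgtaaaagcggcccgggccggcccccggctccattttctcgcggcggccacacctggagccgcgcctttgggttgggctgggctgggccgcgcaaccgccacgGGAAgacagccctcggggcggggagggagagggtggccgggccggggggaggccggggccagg

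RefSeq entries were matched for 8 of the 10 members, DSC2 and JUP with 2 entries each, and not for PKP2 and PKP3. GGAA, read on both strands, occurred 2 times in the PKP1 region, 4 times in DSG3, and once each in JUP and DSG2. It occurred 3 times in DSG1, 2 times in DSP, once in DSC3, and 1 and 9 times in the 2 entries of DSC2. The second JUP entry held 4. This short core is common: 92.74% of the 35116 RefSeq start regions of the same length held it. The longer forms CGGAAG (16.48% of all regions) and CCGGAAGT (3.423%), both of which contain GGAA, occurred in none of the 10 entries. These matches describe letters in one window and show no binding. Base composition ranged widely: guanine and cytosine made up 42.8% of the DSG3 region, 48% of DSG1, 67.6% of PKP1, 75.2% of DSG2 and 78% of DSP. The 5 cadherin members lie in a single cluster on chromosome 18, in the order DSC3, DSC2, DSC1, DSG1, DSG4, DSG3 and DSG2, while the plaque genes lie on chromosomes 1 (PKP1), 12 (PKP2), 11 (PKP3), 6 (DSP) and 17 (JUP).

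Control libraries of the 3 lines differed widely in their desmosomal genes. Levels of different genes are compared here only per gene length, as TPM, a length-scaled share of the library, recomputed from the counts and given as mean ± SD over the control libraries (n = 3 in A253, n = 2 in SCC25 and CAL27). In SCC25 the highest was DSG3 at 274 ± 21.3 TPM, next to DSP at 262 ± 20.8 TPM, and these lie within their spread. JUP followed at 181 ± 15.4 TPM, DSC3 at 161 ± 12.1 TPM, DSG2 at 140 ± 4.02 TPM and PKP1 at 124 ± 10.6 TPM. The lower members in SCC25 were PKP3 at 77.4 ± 2.46, DSC2 at 46.8 ± 2.70, PKP2 at 20.9 ± 0.774 and DSG1 at 0.933 ± 0.0731 TPM.

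In A253 the highest was DSG2 at 173 ± 26.4 TPM, and DSP (142 ± 37.8), DSG3 (135 ± 3.98), JUP (121 ± 17.6) and DSC3 (115 ± 12.2) followed without clear separation between neighbours. PKP3 stood at 74.8 ± 1.48 TPM, PKP1 at 45.2 ± 5.17, DSC2 at 31.0 ± 5.67, PKP2 at 10.6 ± 0.983 and DSG1 at 2.25 ± 0.425 TPM. CAL27 had the lowest sum of all 10 members, 495 ± 19.2 TPM against 850 ± 110 TPM in A253 and 1288 ± 85.1 TPM in SCC25. Its order was also different, with DSP (109 ± 6.88 TPM) and PKP3 (108 ± 7.35 TPM) at the top within their spread and JUP at 90.4 ± 0.00558 TPM next. DSG2 stood at 61.6 ± 3.09 TPM in CAL27, DSG3 at 38.5 ± 0.164, PKP2 at 31.1 ± 1.70, DSC3 at 24.5 ± 1.23, PKP1 at 20.5 ± 0.453 and DSC2 at 11.8 ± 0.396 TPM. DSG1, the desmoglein of the upper squamous layers, had no count in either CAL27 control library.

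**Figure D1:**
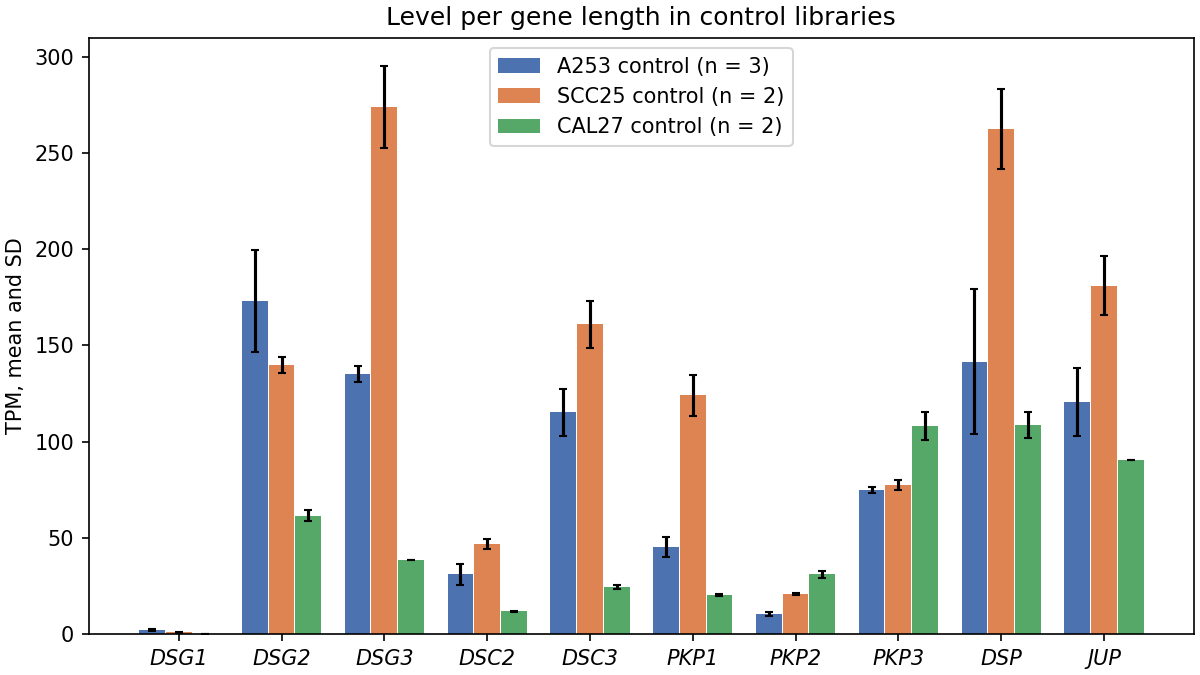
Level of each desmosomal gene per gene length in control libraries. The vertical axis is TPM, starting at 0, bars are means, and error bars are SD over 3 A253, 2 SCC25 and 2 CAL27 libraries. DSG3 and DSP are highest in SCC25 (274 and 262 TPM), and the CAL27 bars are the lowest of the 3 lines for all members but PKP2 and PKP3.

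Of the 10 members, 9 differed between A253 and SCC25 controls at an adjusted p under 0.05 (edgeR quasi-likelihood test, Benjamini-Hochberg over all genes tested; 74.5% of all genes did). Against CAL27, A253 controls differed in 9 members (73% of all genes) and SCC25 controls in 10 (70.9% of all genes). With most genes differing between lines, and each line in a table of its own, the count of members called says little about desmosomes. Between CAL27 and SCC25, 8 members were lower in CAL27, of squamous and simple type alike. CAL27 controls were below SCC25 controls by log2 -2.83 (SE 0.073) for DSG3, -2.72 (SE 0.079) for DSC3 and -2.59 (SE 0.082) for PKP1. The difference was -1.98 for DSC2, -1.27 for DSP, -1.19 for DSG2 and -1.002 for JUP, and all 7 passed the 0.05 threshold. PKP2 and PKP3 had the opposite sign, at 0.57 (SE 0.082, adjusted p = 2.4e-06) and 0.48 (SE 0.070, adjusted p = 3.25e-06). DSG1 in A253 controls (282 counts) stood at 59.0 times the limit that a count of 0 allows in CAL27 controls. In SCC25 controls (81 counts) it stood at 25.4 times that limit, which is 3 counts over the pair of libraries. These ratios allow for counting error in the CAL27 controls only. The lower PKP3 in A253 than in SCC25 (log2 -0.19, adjusted p = 0.011) was lost with DESeq2 and without A253 control replicate 2 or SCC25 control replicate 2, where the adjusted p reached 0.418. The higher JUP in A253 than in CAL27 (log2 0.28, adjusted p = 0.00386) reached an adjusted p of 0.0527 without CAL27 control replicate 1.

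**Figure D2:**
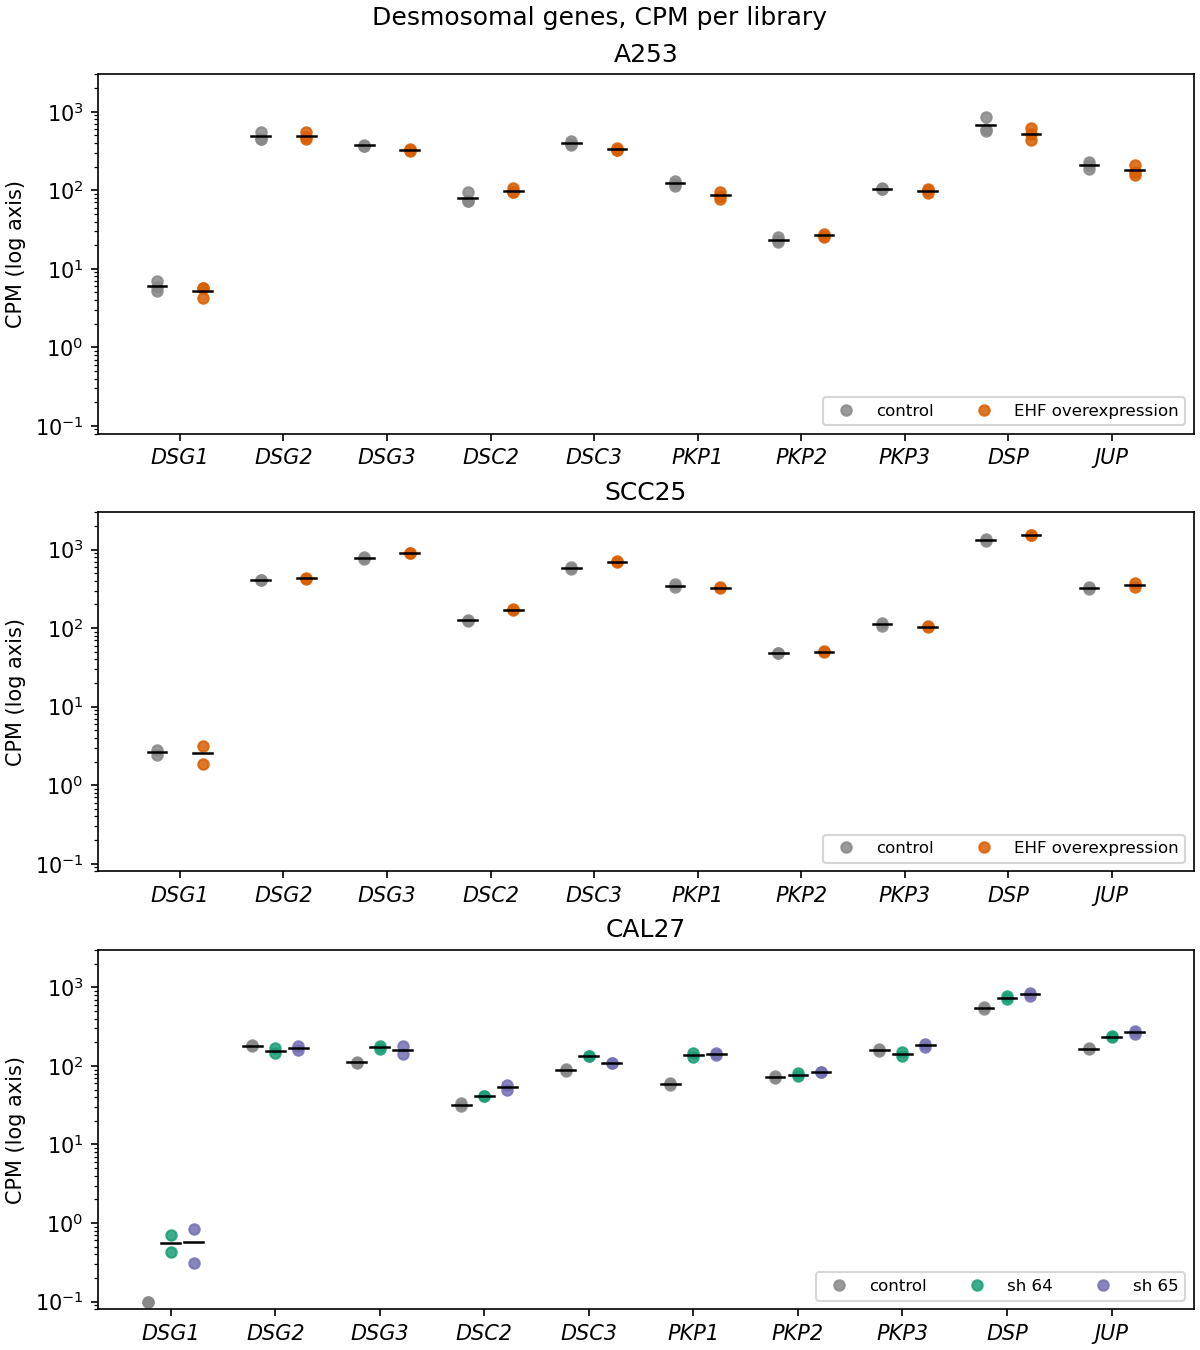
TMM-scaled CPM of the 10 desmosomal genes in each of 16 libraries, on a log axis, 1 panel per line; points are libraries and short lines are group means. In CAL27 the knockdown points of PKP1 (132 to 147 CPM) lie well above the controls (56.7 and 60.05 CPM); the CAL27 control points of DSG1, which are 0, are drawn at the bottom edge.

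EHF knockdown in CAL27 was the change that reached most of the desmosome. In the mean of both knockdowns against control, 6 of the 9 members that could be tested rose, where 18.8% of all genes changed and 9.88% rose. The 6 were the cadherins DSG3, DSC2 and DSC3 and the plaque proteins PKP1, DSP and JUP. The median log2 change of the 9 tested members was 0.49, against 0.00 over all genes tested. DSG2, PKP2 and PKP3 did not pass the test. None fell in this fit or with DESeq2, and 1 (DSG2) was lower at an unadjusted p under 0.05. DSG2 was called lower in 2 alternatives: log2 -0.17 with the replicate number as a block (adjusted p = 0.0313) and -0.21 without sh 65 replicate 1 (adjusted p = 0.0322). DSG1 was too low for the filter on low counts. In RNA from whole cultures, a change in the number of cells that express a gene and a change in its RNA per cell cannot be told apart.

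PKP1, the plakophilin that clusters desmosomal proteins in squamous cells, had the largest change of the 9 tested members. It stood at 56.7 and 60.05 CPM in the controls, at 146 and 132 CPM in sh 64, and at 140 and 147 CPM in sh 65. All 4 knockdown libraries were above both controls, and the knockdowns overlapped each other. The rise was 2.41-fold for the mean (log2 1.27, SE 0.075, adjusted p = 1.35e-08, edgeR), with log2 changes of 1.25 in sh 64 and 1.29 in sh 65. These 2 knockdowns share their control libraries, here and below.

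The other plaque proteins that rose were JUP, the plakoglobin that binds cadherin tails, and DSP, the link to keratin. JUP stood at 163 and 168 CPM in the controls, 238 and 235 CPM in sh 64, and 281 and 257 CPM in sh 65. The groups did not overlap, with sh 65 highest, and the mean change was 1.52-fold (log2 0.61, SE 0.066, adjusted p = 4.53e-06). DSP stood at 570 and 534 CPM in the controls, 767 and 708 CPM in sh 64, and 854 and 783 CPM in sh 65. Here too both knockdowns were above the controls, by 1.41-fold for their mean (log2 0.49, SE 0.066, adjusted p = 4.45e-05).

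Among the cadherins, DSG3, the main desmoglein of squamous basal cells, stood at 110 and 113 CPM in the controls, 179 and 166 CPM in sh 64, and 144 and 178 CPM in sh 65. Every knockdown library exceeded both controls, and the mean change was 1.496-fold (log2 0.58, SE 0.082, adjusted p = 9.69e-05). DSC3, its desmocollin counterpart in squamous epithelium, stood at 91.3 and 87.3 CPM in the controls, 134 and 134 CPM in sh 64, and 110 and 110 CPM in sh 65. The 3 groups were fully separate, and the mean change was 1.36-fold (log2 0.44, SE 0.068, adjusted p = 0.000163). DSC2, the more widely expressed desmocollin, stood at 31.1 and 33.4 CPM in the controls, 41.1 and 41.2 CPM in sh 64, and 49.5 and 57.6 CPM in sh 65. Its groups were separate as well, in the order control, sh 64, sh 65, and the mean change was 1.45-fold (log2 0.53, SE 0.090, adjusted p = 0.000456).

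The 3 members with no call in the knockdown mean include the simple-epithelial types DSG2 and PKP2. DSC2, grouped with them above, did rise (log2 0.53), so the calls do not divide by type. DSG2 stood at 186 and 178 CPM in the controls, 168 and 146 CPM in sh 64, and 178 and 157 CPM in sh 65. The sh 64 libraries were below the controls and the sh 65 libraries overlapped them, and the mean log2 change was -0.16 (95% interval -0.31 to -0.01, adjusted p = 0.141). PKP2 stood at 73.9 and 70.1 CPM in the controls and between 74.2 and 83.1 CPM in the 4 knockdown libraries. No PKP2 control reached the knockdown range, but the log2 change of 0.16 (95% interval 0.00 to 0.31) gave an adjusted p of 0.149. PKP3, a plakophilin found in all desmosome-bearing layers, had a mean log2 change of 0.02 (95% interval -0.12 to 0.17, adjusted p = 0.864). DSG1 had 0 counts of 28980510 in the control pair, 12 in the sh 64 pair and 10 in the sh 65 pair. Over the 4 knockdown libraries this is 0.578 CPM of the unscaled library totals. That is 5.58 times the limit of 3 counts for the control pair (0.104 CPM). The ratio allows for counting error in the controls only, not in the 22 knockdown counts.

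Taken singly, 6 of 9 tested members rose in sh 64 (15.7% of all genes changed, 8.76% rose) and 6 of 9 in sh 65 (14.6% and 7.62%), in both cases DSG3, DSC2, DSC3, PKP1, DSP and JUP. Set against each other, sh 65 and sh 64 differed in 3 members (5.34% of all genes). DSC2 was higher in sh 65 by log2 0.38 (adjusted p = 0.0391) and PKP3 by log2 0.36 (adjusted p = 0.0123), while DSC3 was lower by log2 -0.29 (adjusted p = 0.0345). PKP3 stood at 148 and 134 CPM in sh 64 and at 190 and 174 CPM in sh 65, on either side of the controls at 164 and 153 CPM. The EHF difference between the knockdowns was -0.16 on the log2 scale (adjusted p = 0.23). The call of DSC2 in sh 64 (adjusted p = 0.0316) was lost with DESeq2 and without either control or either sh 64 library (adjusted p from 0.0932 to 0.239 over these 5), and that of DSC3 in sh 65 (adjusted p = 0.0135) without control replicate 1 or 2 (up to 0.21). The 3 differences between the knockdowns were lost under 6, 7 and 2 alternatives for DSC2, DSC3 and PKP3, with adjusted p-values up to 0.199, 0.133 and 0.103. The 6 calls in the mean of both knockdowns held under all alternatives, DESeq2 and single libraries left out included.

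Some epithelial markers moved with these rises. The summed level of the 8 epithelial markers (EPCAM, CDH1, KRT5, KRT14, KRT8, KRT18, TP63 and SFN) was 7653 to 7906 CPM in CAL27 controls, 9284 to 9898 CPM in sh 64 and 10578 to 11579 CPM in sh 65. Mean KRT5 was 4513 CPM in controls, 5519 in sh 64 and 6781 in sh 65, mean KRT14 was 732, 1676 and 1748 CPM, and mean TP63 was 341, 472 and 438 CPM. Of the other 5, only SFN was higher in both knockdowns, and slightly so (442, 450 and 466 CPM). Mean CDH1 was 260, 247 and 241 CPM, and KRT18 647, 565 and 548 CPM. KRT8 averaged 636, 459 and 646 CPM, and EPCAM 208, 204 and 210 CPM. The 7 fibroblast markers summed to 8.28 to 8.96 CPM in controls, 14.3 to 16.7 in sh 64 and 8.73 to 9.32 in sh 65, with PDGFRA and DCN at 0 in sh 65. The part of these markers in the result was not tested.

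**Figure D3:**
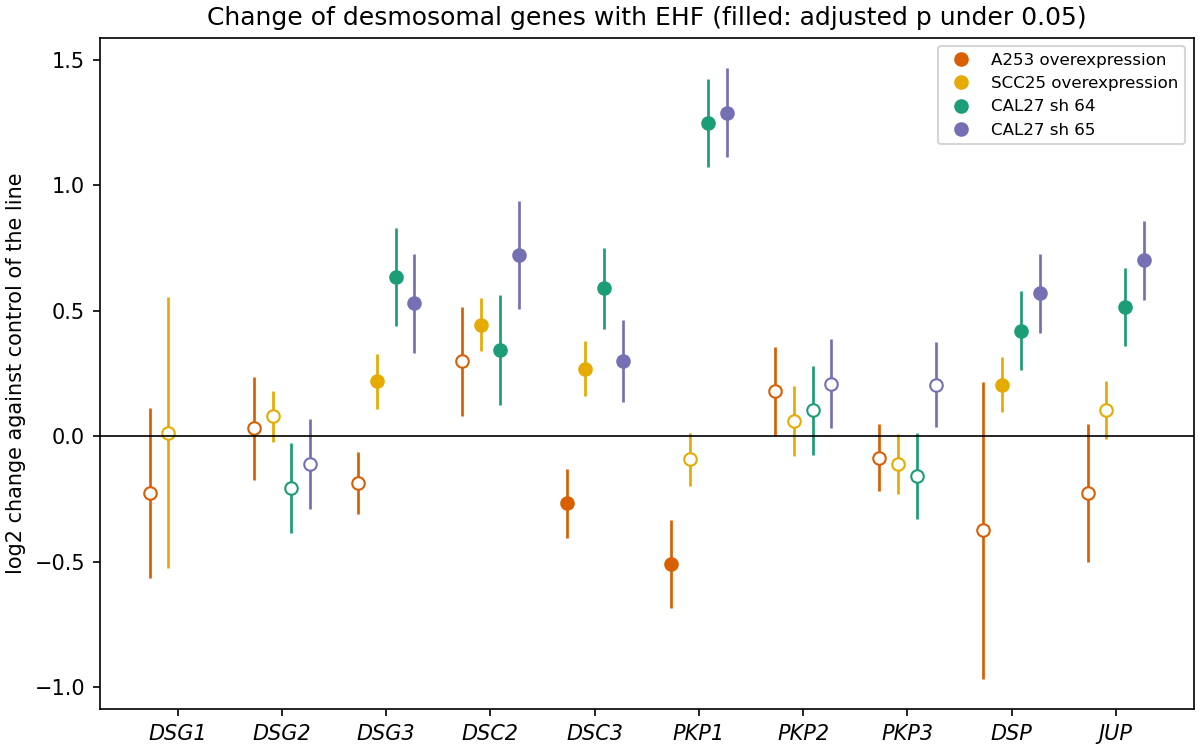
Log2 change of each desmosomal gene against the control of its line, for A253 and SCC25 overexpression and for CAL27 sh 64 and sh 65; bars are 95% intervals and filled points passed an adjusted p of 0.05 (edgeR). PKP1 is highest in both knockdowns (1.25 and 1.29) and lowest in A253 overexpression (-0.51), and DSG1 has no CAL27 point because it did not pass the filter.

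In SCC25, the line with the highest summed desmosomal level, 4 of 10 members rose with EHF overexpression, where 23.9% of all genes changed and 12.2% rose. The 4 were the cadherins DSG3, DSC2 and DSC3 and the plaque protein DSP. None fell in this fit or with DESeq2, and 0 were lower at an unadjusted p under 0.05. Their rises lay between 1.15-fold and 1.36-fold, and the median log2 change of the 10 members was 0.09 against 0.00 over all genes. DSC2 stood at 128 and 125 CPM in the controls and at 169 and 174 CPM after overexpression. The groups were separate, by 1.36-fold (log2 0.44, SE 0.051, adjusted p = 3.71e-07, edgeR). DSC3 stood at 594 and 563 CPM in the controls and at 709 and 686 CPM after overexpression. These groups were separate too, by 1.21-fold (log2 0.27, SE 0.053, adjusted p = 0.00047).

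DSG3 stood at 805 and 761 CPM in the SCC25 controls and at 906 and 916 CPM after overexpression, a separate and 1.16-fold higher pair (log2 0.22, SE 0.053, adjusted p = 0.00358). DSP stood at 1354 and 1278 CPM in the controls and at 1515 and 1516 CPM after overexpression, also separate (log2 0.20, SE 0.053, adjusted p = 0.00607). Without overexpression replicate 1 or 2 neither call held: the adjusted p was 0.0539 and 0.0864 for DSG3, and 0.128 and 0.143 for DSP. PKP1 stood at 360 and 336 CPM in the controls and at 334 and 320 CPM after overexpression. Both overexpression libraries lay below both controls, but the log2 change was -0.09 (95% interval -0.20 to 0.01, adjusted p = 0.208). Without control replicate 2 the log2 change of PKP1 was -0.14. JUP (log2 0.10, interval -0.01 to 0.22), DSG2 (0.08, -0.02 to 0.18), PKP2 (0.06, -0.08 to 0.20), PKP3 (-0.11, -0.23 to 0.01) and DSG1 (0.01, -0.53 to 0.55) did not pass the test. Without control replicate 1 the log2 changes were -0.18 for PKP3 and 0.15 for JUP. In both overexpression libraries DSG2 and PKP2 lay above their controls and PKP3 below. Separation of 2 against 2 libraries therefore does not set the called members apart. The 7 fibroblast markers summed to 88.8 to 99.6 CPM in SCC25 controls and 109 to 111 CPM after overexpression, and their part in the result was not tested.

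In A253, 2 of 10 members fell with EHF overexpression, where 7.97% of all genes changed, 5.03% rose and 2.94% fell. They were PKP1 and DSC3. None rose in this fit or with DESeq2, and 2 were higher at an unadjusted p under 0.05. The median log2 change of the 10 members was -0.21 against 0.00 over all genes. PKP1 stood at 114, 133 and 119 CPM in the controls and at 95.4, 85.2 and 76.7 CPM after overexpression. All overexpressing libraries were below all controls, and the log2 change was -0.51 (SE 0.082, adjusted p = 0.000991, edgeR), a ratio of 0.703. DSC3 stood at 386, 430 and 379 CPM in the controls and at 329, 341 and 322 CPM after overexpression. These groups were separate as well, with a log2 change of -0.27 (SE 0.065, adjusted p = 0.0146). The DSC3 call was lost without control replicate 1 (adjusted p = 0.0504), control replicate 2 (0.0577) or overexpression replicate 3 (0.0693).

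DSG3 stood at 366, 370 and 381 CPM in the A253 controls and at 319, 336 and 327 CPM after overexpression. The groups did not overlap, but the log2 change of -0.19 (95% interval -0.31 to -0.06) gave an adjusted p of 0.0646. DSC2 stood at 73.5, 94.0 and 74.0 CPM in the controls and at 108, 95.5 and 94.0 CPM after overexpression. Control replicate 2 overlapped the overexpressing libraries. The log2 change was 0.30 (95% interval 0.08 to 0.52, adjusted p = 0.105), and without that control it was 0.42 (adjusted p = 0.00169). With no filter on low counts DSC2 was also called higher (log2 0.30, adjusted p = 0.0225). DSP stood at 605, 858 and 576 CPM in the controls and at 612, 527 and 433 CPM after overexpression. The spread within each group was wide, control replicate 2 being the highest, and the log2 change was -0.38 (95% interval -0.97 to 0.22, adjusted p = 0.482). JUP (log2 -0.23, interval -0.50 to 0.05), PKP2 (0.18, 0.00 to 0.36), PKP3 (-0.09, -0.22 to 0.05), DSG2 (0.03, -0.17 to 0.23) and DSG1 (-0.23, -0.56 to 0.11) did not pass the test either. Without overexpression replicate 1 JUP was called lower (log2 -0.35, adjusted p = 0.0332). The 8 epithelial markers summed to 12165 to 13069 CPM in A253 controls and 10870 to 11717 CPM after overexpression. The 5 leukocyte markers summed to 124 to 129 CPM in controls and 172 to 186 CPM after overexpression, with mean CD68 at 123 and 170 CPM. The part of these markers in the result was not tested.

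The response to overexpression was compared between SCC25 and A253 in a joint fit of both lines. It differed in 2 of 10 members, where it differed in 5.63% of all genes. DSC3 fell in A253 and rose in SCC25, with a difference of log2 0.52 (SE 0.091, adjusted p = 0.00159). For DSG3, the log2 change was -0.19 in A253 and 0.22 in SCC25, a difference of 0.39 (SE 0.081, adjusted p = 0.00646); without SCC25 control replicate 2 the adjusted p was 0.0663. For PKP1 the difference was 0.40 (95% interval 0.15 to 0.65, adjusted p = 0.0602). It passed the threshold in 4 alternatives, among them DESeq2, with adjusted p-values down to 0.00765. DSC2 had the same sign in both lines and a difference of 0.13 (95% interval -0.17 to 0.44, adjusted p = 0.683). EHF itself rose more in A253 than in SCC25, with a difference of log2 -2.05 for SCC25 against A253 (SE 0.109, adjusted p = 5.56e-10). DSC3 was the member called in all 3 main comparisons, lower with overexpression in A253, higher with overexpression in SCC25 and higher with knockdown in CAL27.

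The make-up of each family was followed as a share of its summed TPM. In CAL27, PKP1 made up 12.2% to 13.6% of the plakophilins in controls and 22.9% to 27.8% in the knockdowns. DSG3 made up 37.5% to 39.4% of the desmogleins in controls and 45.1% to 53.6% in the knockdowns. Both shares were higher in all 4 knockdown libraries than in both controls, by 12.7 and 12.6 percentage points. The exact two-sided permutation p was 0.0667 for each, the smallest that 2 against 4 libraries can give. The share of DSC3 among desmocollins was 66.2% to 68.8% in controls, 71.0% on average in sh 64 and 60.7% on average in sh 65, on either side of the controls.

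In A253 the shares of the squamous types were lower with overexpression. DSC3 made up 77.4% to 79.8% of the desmocollins in controls and 69.6% to 72.9% after overexpression, and PKP1 made up 33.0% to 36.9% of the plakophilins in controls and 25.1% to 29.2% after overexpression. These ranges do not overlap, and the exact permutation p of 0.1 for each is the smallest that 3 against 3 libraries can give. DSG3 made up 40.4% to 45.9% of the desmogleins in A253 controls and 36.8% to 41.9% after overexpression, which overlap (exact permutation p = 0.3). In SCC25 the shares of DSG3 (66.0% and 68.2% on average), DSC3 (77.5% and 75.3%) and PKP1 (55.7% and 55.4%) differed by 2.15, -2.18 and -0.31 percentage points. In SCC25 the smallest p that 2 against 2 libraries can give is 0.333. None of the 9 exact tests could pass a threshold of 0.05 with so few libraries, and the lowest Benjamini-Hochberg adjusted p of these exact tests was 0.225.

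**Figure D4:**
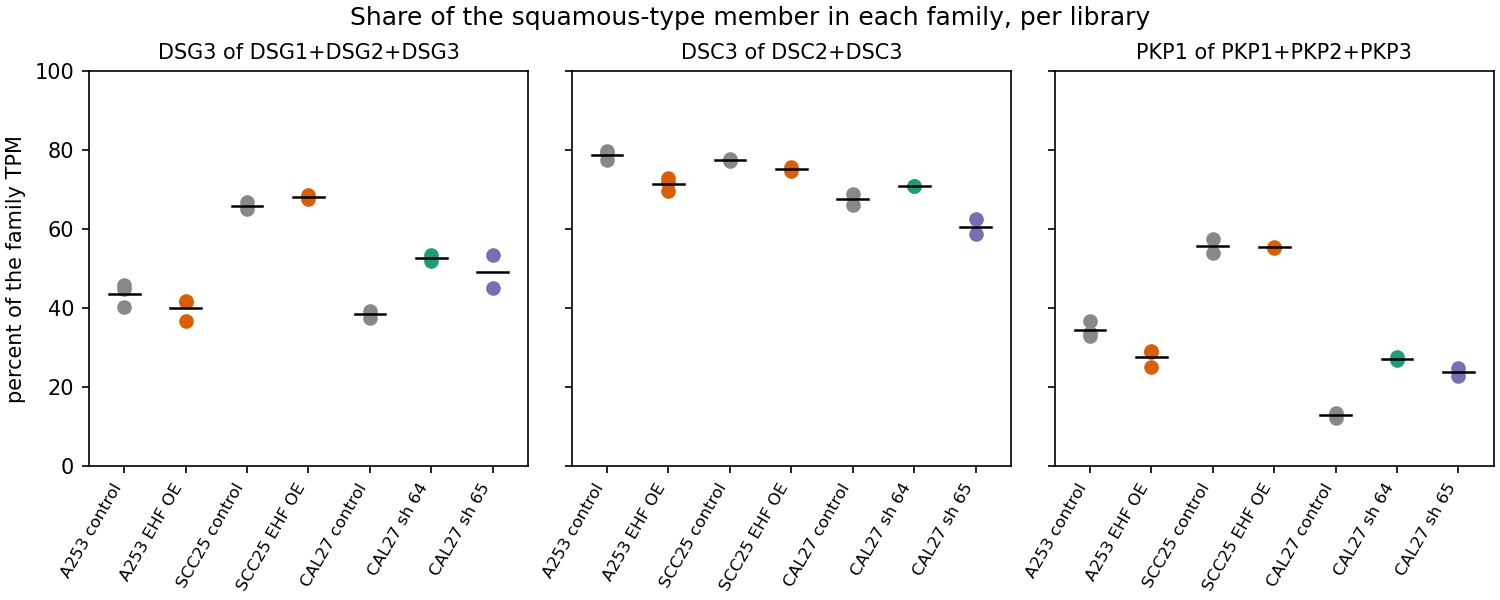
Share of DSG3 among DSG1, DSG2 and DSG3, of DSC3 among DSC2 and DSC3, and of PKP1 among PKP1, PKP2 and PKP3, in percent of the family's summed TPM; points are libraries and lines are group means. The CAL27 knockdown points lie above the controls for DSG3 and PKP1, and the A253 overexpression points lie below the controls for DSC3 and PKP1.

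Over all 16 libraries, with each line's mean removed, 8 of 36 pairs among the 9 members other than DSG1, which was too low in CAL27, had a Pearson r over 0.7, 7 were below 0, and the median was 0.24. The highest were DSP with JUP (0.91), PKP1 with JUP (0.90), DSG3 with PKP1 (0.87) and DSG3 with DSC3 (0.86). DSG2 and DSG3, which lie next to each other in the cluster, had the lowest value, -0.47. These values describe 16 libraries that share lines, treatments and depth. By the same measure, the genes most like DSC3 were UBE2H (0.96), BMP2 (0.95) and INPP4A (0.93), among 10063 genes compared. Those most like PKP1 were HCAR2 (0.98), RAB3D (0.96) and CAST (0.96).

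**Figure D5:**
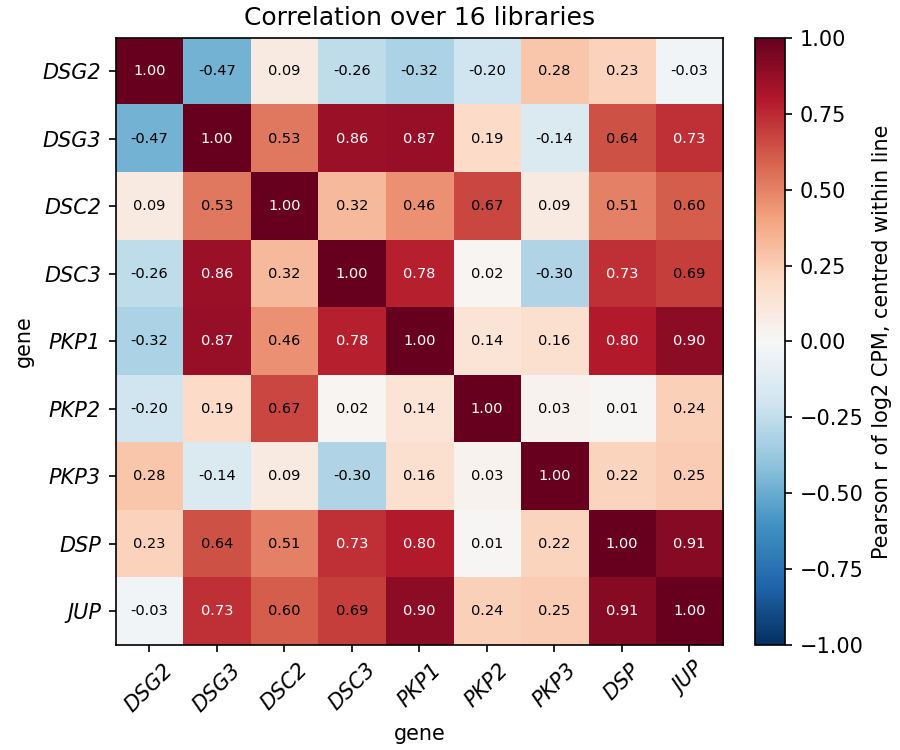
Pearson r between desmosomal genes over 16 libraries, from log2 CPM centred on the mean of each line; both axes list the genes and colour runs from -1 to 1. PKP1, DSP, JUP, DSG3 and DSC3 form the dark block (DSP with JUP 0.91), and DSG2 is pale or blue against DSG3 (-0.47).

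Genes that work beside the desmosome were taken from 5 lists, whose counts stand beside these shares of all genes: 9.88% rose and 18.8% changed in the CAL27 mean, 12.2% rose and 23.9% changed in SCC25, and 5.03% rose and 2.94% fell in A253. The first holds 7 other desmosomal or envelope-anchoring proteins. Of those tested, 2 of 6 rose in the CAL27 knockdown mean, 1 of 5 rose in SCC25 overexpression and 2 of 6 (1 with DESeq2) fell in A253 overexpression. The genes of these counts were named after their values were seen, and alternatives were not run for each of them. PERP, a tetraspan protein of desmosomes, rose by log2 0.29 in CAL27 (adjusted p = 0.00617) and 0.20 in SCC25 (adjusted p = 0.00698) and fell by 0.31 in A253 (adjusted p = 0.00454). PPL, or periplakin, rose by 0.48 in CAL27 (adjusted p = 0.00011). CDSN, or corneodesmosin, fell by 1.35 in A253 (adjusted p = 0.0108). Its level there was low, an average log2 CPM of 0.30, below the limit of 2 used for the other named genes.

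Keratins are the filaments that desmosomes anchor. In the CAL27 knockdown mean 6 of 10 tested rose and 2 fell, with a median log2 change of 0.45. Among them KRT19 rose by log2 2.88, KRT16 by 1.42, KRT14 by 1.23 and KRT6A by 0.91, while KRT8 and KRT18 fell by 0.22 each. KRT19 was low, with an average log2 CPM of 2.04 in CAL27, against 10.4 for KRT14. The log2 change of KRT8 was -0.47 in sh 64. Its mean level was 636 CPM in controls, 459 in sh 64 and 646 in sh 65. In A253 overexpression 6 of 11 keratins fell, KRT16 by 0.66 and KRT17 by 0.58. In SCC25 overexpression 4 of 11 rose (2 with DESeq2), KRT19 by 0.59 and KRT17 by 0.57.

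Adherens junction genes encode the parts of the neighbouring actin-linked junction. In the CAL27 knockdown mean 3 of 11 rose and 2 fell (2 and 0 with DESeq2), among them the nectins PVRL4 (log2 0.93) and PVRL1 (0.79). In SCC25 overexpression 5 of 11 rose (2 with DESeq2). CTNND1, or p120-catenin, rose by 0.52, a call lost with DESeq2 (adjusted p = 0.229), without control replicate 1 (log2 0.31, adjusted p = 0.195) and without overexpression replicate 2 (log2 0.29, adjusted p = 0.373). In A253 overexpression 0 of 11 passed with edgeR or with DESeq2, and 1 was higher and 2 were lower at an unadjusted p under 0.05. Of the proteases and inhibitors that act on junction proteins, 5 of 8 rose (3 with DESeq2) and 1 fell in CAL27. In SCC25 6 of 8 rose and 1 fell (0 with DESeq2), and in A253 1 of 7 rose and 1 fell. KLK7, a protease that cleaves desmosomal proteins in shed skin, rose by 1.01 in SCC25. KLK5, which acts with it, rose by 0.63 in the CAL27 mean, which came from sh 65 (1.32), while its log2 change in sh 64 was -0.05 (adjusted p = 0.726). SPINK5, an inhibitor of both, rose by 1.13 in the CAL27 mean (1.70 without control replicate 2). CTSL2 fell by 0.53 in A253. ADAM9 rose by 0.63 in SCC25 and by 0.30 in A253, while its log2 change in the CAL27 mean was -0.24.

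Of the transcription factors of epithelial adhesion, 5 of 11 rose and 1 fell (0 with DESeq2) in CAL27, 4 of 13 rose in SCC25, and 1 of 13 rose and 2 fell in A253, where DESeq2 called none. KLF4 rose by log2 0.82, KLF5 by 0.51 and GRHL1 by 0.51 in the CAL27 mean. The GRHL1 call was lost without control replicate 1 (adjusted p = 0.0541) or 2 (adjusted p = 0.124). In SCC25, GRHL1 rose by 0.66 and TP63, the regulator of squamous identity, by 0.58.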

How the data were processed

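RNA of 16 libraries was analysed. Raw counts per gene symbol, 1 table per line, were deposited by the authors; the submitters' processing notes name TopHat2 2.1.1, featureCounts 1.5.3, Bowtie 1.1.1, DESeq2 1.12.4 and the hg19 build, without roles. TPM were deposited by the authors as well. The TPM of A253 gave relative gene lengths, with which TPM were recomputed from counts in all lines. The SCC25 TPM table was not used. Of the gene names in the CAL27 counts, 696 were altered, none of them a member, and names were taken by position from A253; the implied lengths were equal (within 0.01 log2) for 18450 of 18450 genes. The CAL27 TPM table names sh 64 and sh 65 the other way round, and names here follow the count table.

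Counts were tested with edgeR 4.0.16 (R 4.3.3; robust quasi-likelihood, TMM, filterByExpr, 1 fit per line, a joint fit for SCC25 against A253 and another for the controls), with p-values adjusted by Benjamini-Hochberg over all genes tested and a threshold of 0.05. The fits were tested on simulated data. CPM are TMM-scaled within a line. Log2 CPM for correlations used a prior count of 2. Shares were tested with exact permutation tests (scipy 1.17.1). Alternatives were RLE size factors, no filter on low counts, DESeq2 1.42.0, a replicate block and each library left out in turn.

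The members and lists were chosen with earlier results of these data known. All members are named. Genes from the lists had to pass the threshold with an absolute log2 change of at least 0.5. They also needed an average log2 CPM of at least 2, with at most 4 named per list and comparison. Not all such genes were named. Exceptions are those said to be named after their values were seen. KRT8, KRT18, and ADAM9 in A253 and CAL27 were also chosen so. Annotation and start regions are RefSeq, GRCh38.p14, used for names, order and sequence only.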

Additional observations from a re-analysis of the deposited data

Results flagged for a closer look

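Among the desmosomal genes, 5 results differed between groups under the same contrast, each by a test of the difference itself with edgeR. The effect of EHF overexpression was higher in SCC25 than in A253 by log2 0.39 for DSG3 and by 0.52 for DSC3. Between the CAL27 knockdowns, sh 65 was above sh 64 by log2 0.38 for DSC2 and by 0.36 for PKP3, and for DSC3 the difference was -0.29. These knockdowns share no library with each other in that contrast. In the 4 CAL27 knockdown libraries, taken as 1 group, none of the 10 members had a library far from the others.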

How the results depend on the processing

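In the mean of both CAL27 knockdowns, 6 to 7 members were called under all alternatives; the added member was DSG2, which was lower, with the replicate block and without sh 65 replicate 1, and DSG1 with no filter on low counts. The count of members called was 2 in A253 overexpression and ran from 1 to 3 with 1 library left out (1 without control replicate 1 or without overexpression replicate 3). It was 4 in SCC25 overexpression and was smaller without overexpression replicate 1 or 2. It was larger without control replicate 2, which added PKP1 (lower), and without control replicate 1, which added PKP3 (lower) and JUP (higher). It was 3 between sh 65 and sh 64, 1 with DESeq2, and 0 to 1 with 1 library left out (0 without sh 64 replicate 2). It was 2 for the difference between SCC25 and A253 and ran from 1 to 3 (1 without SCC25 control replicate 2).

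Same-numbered libraries correlated by -0.192 to 0.181 in A253, -0.0306 in SCC25 and -0.0107 to 0.153 in CAL27 in their deviations from group means. In groups of 2 libraries these deviations mirror each other, so the values cannot decide whether replicate numbers pair the libraries. With a replicate block, genes called went from 2560 to 3317 in the CAL27 mean. They went from 3370 to 3521 in SCC25 and from 1156 to 1073 in A253. With a replicate block 3 members were called in A253 (DSG3 gained, adjusted p = 0.0487), 4 in SCC25, 7 in the CAL27 mean and in sh 64 (DSG2 added, lower), 7 in sh 65 (PKP3 added, higher), 3 between the knockdowns and 2 for the difference between lines.

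Signs turned 16 times, all in members that had no call. With 1 library left out at a time, DSG2 ran from -0.059 to 0.13 in A253, DSG1 from -0.48 to 0.29 in SCC25 and PKP3 from -0.032 to 0.070 in the CAL27 mean. Between sh 65 and sh 64, DSG3 ran from -0.27 to 0.048 and PKP1 from -0.024 to 0.12. For SCC25 against A253, DSG1 ran from -0.27 to 0.51, DSG2 from -0.049 to 0.12 and PKP3 from -0.098 to 0.047. DSG1 in SCC25 was also -0.027 with DESeq2 and -0.036 with the replicate block. The cause was not tested.

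Over all alternatives the number of genes called ran from 658 to 1383 in A253, 1527 to 3662 in SCC25, 937 to 3317 in the CAL27 mean, 866 to 2968 in sh 64, 879 to 2715 in sh 65, 263 to 1260 between the knockdowns and 318 to 975 for SCC25 against A253. Within CAL27, DSG1 counts were too few to pass the filter on low counts, so the main fit gave no fold change with knockdown.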
